A study of Homo sapiens with 10 samples.

Results

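Brush border hydrolases and peptidases are enzymes of the apical membrane of enterocytes, the absorptive cells of the intestine. The set described here was fixed as 9 gene symbols: SI, LCT, MGAM and TREH, which split sugars, DPP4, ANPEP, ENPEP and MME, which cut peptides, and ALPI, an alkaline phosphatase. All 9 were found among the 60554 genes of the deposited tables, and their counts were taken as the sum over the transcripts of each gene. Of the 9, only TREH and DPP4 passed the filter on low values, more than 3 RPM (estimated counts per 1000000 of a library) in at least 20% of the libraries for a gene with a protein-coding transcript, which 11640 genes passed.

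RNA was counted in 10 libraries of Caco-2, a human colon carcinoma cell line that takes on enterocyte features in culture. All 10 came from a stable Caco-2 line expressing dCas9-KRAB, a DNA-binding Cas9 without cutting activity that is joined to a repressor domain, selected as monoclonal with puromycin and then infected with a second lentivirus. In 5 libraries (gCtl) that virus carried an empty guide plasmid, in 3 (g1) the first guide RNA against the long non-coding RNA LHFPL3-AS2 and in 2 (g2) the second, each driven by the U6 promoter. The guides were introduced into a stable clone, so the groups share its background. The labels list each library as its own sample without saying whether cultures were separate, so p-values measure the spread between these libraries, which may be technical.

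Library totals ranged from 3838803 to 8730468 estimated counts, so 1 count is worth between 0.115 and 0.260 RPM. LHFPL3-AS2 itself was between 0.840 and 3.73 RPM in gCtl and between 2.03 and 6.01 RPM in the libraries of both guides (log2(RPM + 1) compared by a two-sided exact permutation test, p = 0.190). A lower level of the targeted RNA was not seen in these libraries, and other assays of it are not analysed here, so groups are named by their labels, the g1 and g2 libraries together are called the libraries labelled knockdown, and each direction below rests on those labels. Of 8 genes listed as enterocyte markers, all 8 had counts, although APOA4 held 22 over all 10 libraries and 0 in 3 of them. The summed level of the 8 was 1353 to 1539 RPM in gCtl and 1419 to 1562 RPM in the libraries labelled knockdown. EPCAM and APOA1, with means of 775 and 425 RPM over all libraries, made up most of that sum. It therefore says little about the other markers. Of 8 markers of goblet, enteroendocrine, Paneth, mesenchymal and immune cells, the summed level was 84.2 to 104 RPM in gCtl and 57.6 to 144 RPM in the libraries labelled knockdown, and the part of these in the results was not tested. Most of this second sum was TFF3, with a mean of 70.1 RPM over all libraries. In bulk RNA, fewer cells making an RNA and less of it per cell cannot be told apart.

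As background, sucrase-isomaltase, lactase, maltase-glucoamylase and trehalase finish the digestion of dietary sugars at the cell surface, and the peptidases trim peptides for uptake. Several of them appear as enterocytes mature, and SI is a classical marker of differentiated Caco-2 cells. The transcription factors CDX2 and GATA are known to act on the SI promoter.

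Promoter sequences are shown for SI, the member with the largest difference between groups, for MGAM, whose protein is the closest relative of SI among the members, and for TREH, which was called in a comparison. They come from RefSeq on GRCh38.p14 and hold the bases before the RefSeq start, up to the first base that any annotated exon of the same gene covers. Of the 9 members, 8 had an entry in the promoter table, and LCT is named only. Capitals mark matches on either strand to 3 short motifs. The long CDX motif was TTTATNG and the short one, as a separate search, was TTTAC. For the GATA factors the letters were AGATAA. The SI sequence is chr3:165078497-165078746 on the minus strand, the MGAM sequence chr7:141995629-141995837 on the plus strand and the TREH sequence chr11:118679691-118679900 on the minus strand.
SI: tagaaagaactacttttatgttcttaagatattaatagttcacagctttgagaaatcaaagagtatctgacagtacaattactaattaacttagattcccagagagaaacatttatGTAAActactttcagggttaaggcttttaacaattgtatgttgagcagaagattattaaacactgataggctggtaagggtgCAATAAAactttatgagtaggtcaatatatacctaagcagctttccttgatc
MGAM: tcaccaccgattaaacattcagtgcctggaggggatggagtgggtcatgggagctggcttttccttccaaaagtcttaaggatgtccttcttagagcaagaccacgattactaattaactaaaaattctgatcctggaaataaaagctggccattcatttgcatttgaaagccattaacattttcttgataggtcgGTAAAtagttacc
TREH: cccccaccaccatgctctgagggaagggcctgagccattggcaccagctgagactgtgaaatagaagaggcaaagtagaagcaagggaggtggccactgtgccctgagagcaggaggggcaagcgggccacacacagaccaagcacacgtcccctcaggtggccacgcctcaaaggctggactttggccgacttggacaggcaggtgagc

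In the 250 bases before the start, the SI promoter held 1 match each to the long and the short CDX motif and none to the GATA motif. The MGAM promoter held 1 match to the short CDX motif. Among 35116 promoter entries of the same length, 8.93% held the long CDX motif, 25.2% the short CDX motif and 9.17% the GATA motif. Of the other members, ALPI held 1 match to the short CDX motif, while TREH, DPP4, ENPEP and the ANPEP and MME entries held none of the motifs. SI and MGAM shared a run of 14 bases, attactaattaact, at 173 to 160 bases before the start in SI and 144 to 131 in MGAM. It was the longest run between any 2 of the 8 promoters (28 pairs, the next 11 bases), and it was looked for after the sequences had been seen. Over the same 250 bases, G and C made up 31.6% in SI and 41.6% in MGAM, against 62.4% in TREH, 73.6% in DPP4 and a median of 58.0% over all entries. Annotated exons of the same gene cover all 250 bases in DPP4, 41 in MGAM, 40 in TREH and 0 in SI. The DPP4 values thus describe exon sequence, and the printed MGAM and TREH sequences leave out their exon bases. A match is a string of letters and not a measured binding site.

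Most of the 9 genes were close to silent. DPP4 and TREH together held between 89.1% and 96.4% of the members' counts in each library, and the other 7 genes together held between 16.1 and 63.2 counts per library. At most 3 counts per library, which is the level called near zero here, were found for SI and MGAM in all 5 gCtl libraries, for ALPI in 3 and ANPEP in 4 of them, and for ENPEP in 1. Among the 5 g1 and g2 libraries, ALPI was near zero in all 5, ANPEP in 3 and MGAM in 2, and SI and ENPEP in none. LCT and MME were above 3 counts in every library, but no library held more than 11 counts of LCT or 21.6 of MME. The plot of levels by library shows these genes on their own scales.

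**Figure D1:**
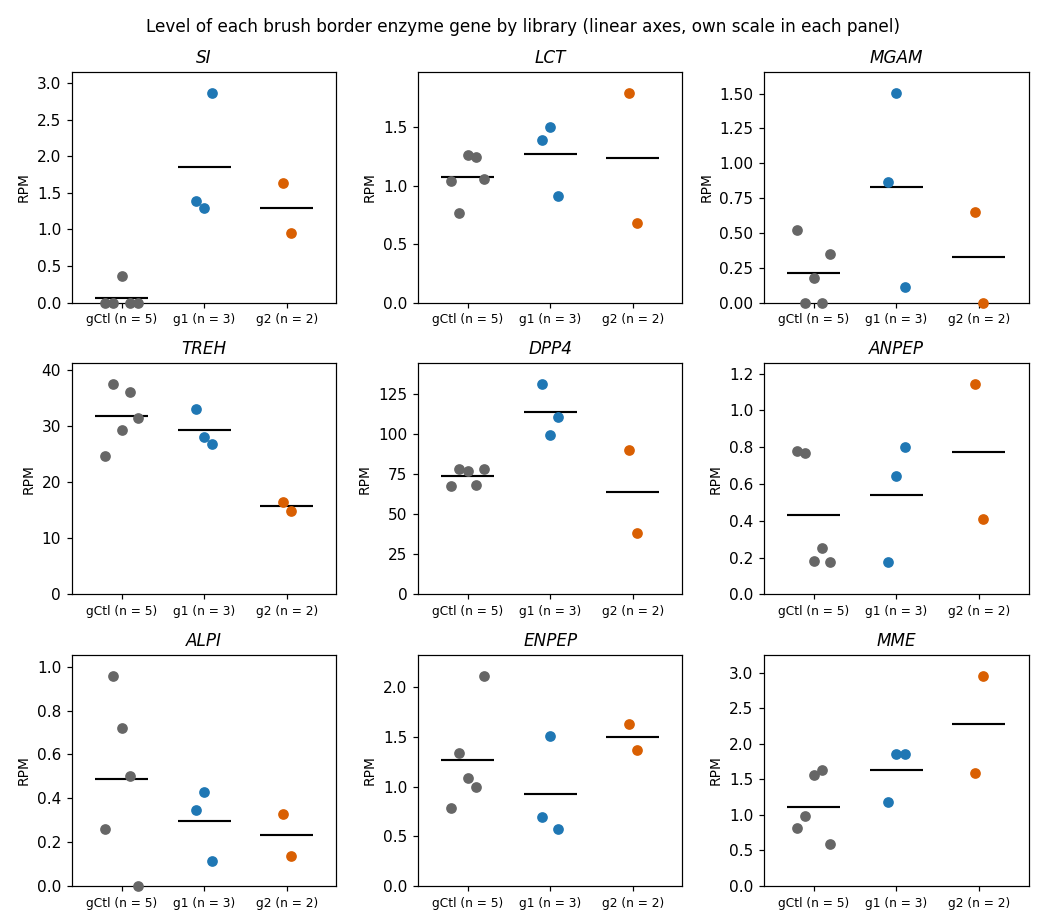
Level of each of the 9 genes in every library, in RPM on linear axes with a separate scale per gene. Points are libraries (5 gCtl, 3 g1, 2 g2) and lines are group means. Among the panels, SI separates the g1 and g2 libraries from gCtl, DPP4 is high in g1, and TREH is low in g2.

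SI (ENSG00000090402.7, chromosome 3, 164978898 to 165078495, minus strand, GRCh38), sucrase-isomaltase, splits sucrose and the branch points of starch. Its counts were 0, 0, 2, 0 and 0 in the gCtl libraries, 8, 6 and 25 in g1, and 10 and 7 in g2. In RPM this was 0.0721 ± 0.161 (SD, n = 5) in gCtl, 1.85 ± 0.881 (SD, n = 3) in g1 and 1.29 ± 0.478 (SD, n = 2) in g2. The lowest of the g1 and g2 libraries lay above the highest gCtl library, and no library reached 3 RPM, so SI failed the filter on low values. SI was the 1 member of 9 whose groups did not overlap, where 9.26% of 23385 genes (any biotype, 10 or more counts in all) did not overlap in either direction and 3.38% were higher. SI reached 10 counts only through the g1 and g2 libraries, so this cut favoured a higher value there. The difference in mean log2(RPM + 1) was 1.26 (p = 0.00794 by the exact permutation test, two-sided, which is the lowest value that 5 against 5 libraries allow). With 2 counts in gCtl against 56 in g1 and g2, the ratio of SI per total count was 20.9 (95% exact interval 5.51 to 176, counting error only).

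In the fit over those 23385 genes (edgeR's quasi-likelihood test with TMM normalization, where a call needs an adjusted p no higher than 0.05 and a change of 1.5-fold or more), SI rose and was the only member called of 9 tested with the libraries labelled knockdown. There 11% of the genes were called in either direction, 4.51% higher and 6.49% lower. Its adjusted p was 0.00370 for g1 and g2 together, 0.00433 for g1 and 0.0145 for g2, where 8.62% and 13.4% of genes were called. For g1 these were 3.42% higher and 5.2% lower, and for g2 they were 5.72% higher and 7.68% lower. Because gCtl held 2 counts, the fitted log2 fold changes, 4.07, 4.24 and 3.76, depend on the prior count and give no bound. The call for g1 was lost without g1 replicate 3 (adjusted p = 0.0558), the library with 25 counts, and the call for g2 without g2 replicate 1 (adjusted p = 0.0757). Of the 8 markers of other cell types in the same fit, 1 was called higher and 0 lower for the guides together, 0 higher and 1 lower for g1, and 1 higher and 0 lower for g2. The marker called higher was MUC2, the goblet cell mucin, with at most 1 count in each gCtl and g1 library and 34 and 33 counts in g2. MUC2 reached the 10 counts needed for this fit only through g2, so the cut favoured a higher value there. The marker called lower was NEUROD1, an enteroendocrine transcription factor, at 2.37 to 10.7 RPM in gCtl, 0.713 to 1.81 RPM in g1, and 3.41 and 3.42 RPM in g2. Both are named after their values were seen, and their part in the SI result was not tested.

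The full-length coding transcript of SI (ENST00000264382.7) held 0 counts in all 5 gCtl libraries and 6.46, 6, 25, 10 and 4.31 counts in the libraries labelled knockdown. Set against a floor of 3 counts over the whole gCtl group, its level per total count was 12.9-fold higher. That value carries no error for either group and is not a lower bound. The 2 counts of gCtl replicate 3 fell on a retained-intron transcript of 363 bases. On a length-corrected scale (TPM, computed from the estimated counts and annotated lengths) those 2 counts on a short transcript came to 1.29 TPM, more than any library labelled knockdown. The difference in mean log2(TPM + 1) was then 0.43 (exact two-sided permutation test, p = 0.143). No 31-base word in the last 500 bases of the coding transcript occurs in another gene's transcripts.

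LCT, MGAM and ALPI did not pass the permutation test for the guides together or the edgeR fit over all biotypes. LCT (ENSG00000115850.9, chromosome 2, 135787840 to 135837180, minus strand), lactase, had 4, 4, 7, 5 and 6 counts in gCtl, 8, 7 and 8 in g1, and 11 and 5 in g2. These groups overlapped, with a mean of 1.08 ± 0.201 RPM for gCtl (SD, n = 5) and 1.26 ± 0.451 RPM for g1 and g2 (SD, n = 5), and the exact permutation test (two-sided) gave p = 0.5. The ratio of LCT per total count was 1.12 (95% exact interval 0.663 to 1.91, counting error only).

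MGAM (ENSG00000257335.8, chromosome 7, 141907813 to 142106747, plus strand), maltase-glucoamylase, which splits maltose and short starch chains, had 2, 0, 1, 0 and 2 counts in gCtl, 5, 7 and 1 in g1, and 4 and 0 in g2. Between 0 and 7 counts per library gave overlapping groups and a wide ratio of 2.53 (95% exact interval 0.897 to 8.78). ALPI (ENSG00000163295.4, chromosome 2, 232456123 to 232460032, plus strand), the intestinal alkaline phosphatase, had 1, 5, 4, 2 and 0 counts in gCtl, 2, 2 and 1 in g1, and 2 and 1 in g2. The exact two-sided permutation test gave p = 0.206 for MGAM and p = 0.333 for ALPI. The ratio for ALPI was 0.497 (95% exact interval 0.176 to 1.32), so for neither gene was a 1.5-fold difference detectable at this depth.

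Of 10 near relatives of the members by sequence, 6 passed the filter and 2, MGAM2 and ALPP, were called higher for the guides together, with a median log2 fold change of 0.08, where 19.2% of the 11640 genes were called and 8.14% higher. Of the other 4 that passed, LCTL, DPP8 and DPP9 were called in no comparison, and LNPEP, an aminopeptidase of intracellular vesicles, fell in g1 (log2 fold change -0.66, SE 0.17, adjusted p = 0.0124, edgeR). LNPEP was 32.5 to 50.4 RPM in gCtl, 21.8 to 30.1 RPM in g1, and 37.6 and 41.8 RPM in g2, and its call was lost without g1 replicate 3 (adjusted p = 0.0617). ALPL, MMEL1 and FAP had 0 counts in every library. MGAM2, which lies next to MGAM on chromosome 7 and codes for a related enzyme, had 0.521 to 1.75 RPM in gCtl and 2.28 to 4.17 RPM in the libraries labelled knockdown. All 5 were above every gCtl value, where 14.5% of the 11640 tested genes did not overlap and 4.67% were higher, and MGAM2 rose with a log2 fold change of 1.70 (SE 0.38, adjusted p = 0.00588, edgeR). MGAM2 passed the filter only through the 3 g1 libraries, at 3.44 to 4.17 RPM, so the filter favoured a higher value there. Neither g2 library reached 3 RPM. Its call was lost under limma on log2(TPM + 1) (adjusted p = 0.0520). No 31-base word in the last 500 bases of MGAM occurs in MGAM2 or any other gene, nor any of MGAM2 in another gene.

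ALPP, the placental alkaline phosphatase, lies close to ALPI on chromosome 2. ALPP was 0.577 to 2.51 RPM in gCtl and 2.28 to 4.4 RPM in the libraries labelled knockdown, overlapping, with a log2 fold change of 1.28 (SE 0.39, adjusted p = 0.0270, edgeR). The filter was passed by ALPP only through libraries labelled knockdown. The ALPP call was lost with any of gCtl replicate 1, 2 or 3 or g1 replicate 1 left out, and in the fit over all biotypes (adjusted p = 0.0506). Of the 31-base words in the last 500 bases of ALPP, 14.7% occur in other genes, so its count is uncertain. ALPPL2, a germ-cell phosphatase that shares 1.28% of such words with ALPI, was at 0.192 to 1.04 RPM in gCtl and 0.163 to 1.74 RPM in the libraries labelled knockdown and failed the filter.

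TREH (ENSG00000118094.11, chromosome 11, 118657316 to 118679690, minus strand), trehalase, splits the disaccharide of mushrooms and insects. Its level was 24.6, 37.4, 29.2, 36.1 and 31.4 RPM in gCtl, 33.0, 27.9 and 26.8 RPM in g1, and 16.4 and 14.8 RPM in g2. Both g2 libraries lay below every other library, while g1 lay within the range of gCtl. The means were 31.7 ± 5.19 RPM (SD, n = 5) in gCtl, 29.2 ± 3.28 RPM (SD, n = 3) in g1 and 15.6 ± 1.13 RPM (SD, n = 2) in g2.

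TREH fell in g2 with a log2 fold change of -0.86 (SE 0.20, adjusted p = 0.00649, edgeR) and was the 1 of 2 members tested that was called there, where 23.7% of the 11640 genes were called in either direction, 10.7% higher and 13% lower. In g1 its log2 fold change was -0.07 (SE 0.17, adjusted p = 0.794). The guides differed in TREH, with a log2 fold change of g2 against g1 of -0.78 (SE 0.22, adjusted p = 0.0477), the 1 of 2 members called where 4.97% of genes were, 1.55% higher and 3.42% lower. That adjusted p lies close to the threshold and the call rests on how library size is defined. It was 0.0618, and not called, in a first fit with library sizes summed over the tested genes alone, and the totals over all genes used here were adopted after that fit had been seen. Over all biotypes it was 0.0625 and no member was called between the guides, where 2.48% of genes were, 0.723% higher and 1.75% lower. In that fit 2 of 9 members (TREH and DPP4) had an unadjusted p below 0.05, as did 3543 of 23385 genes. The call between the guides was also lost with any 1 library left out other than gCtl replicate 1 (adjusted p between 0.0534 and 0.167). The call of g2 against gCtl was lost without g2 replicate 2 (log2 fold change -0.76, adjusted p = 0.0639).

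If the counting ignored strand, TREH reads may be mixed with those of a gene on the opposite strand. All 500 of the last bases of its transcript are covered by exons of PHLDB1 on the opposite strand, and the sources do not say whether the counting used strand. PHLDB1 was 8.98 to 15.4 RPM in gCtl, 12.9 to 16.0 RPM in g1, and 13 and 17.1 RPM in g2. These groups overlapped, and PHLDB1 was not called in g2 (log2 fold change 0.34, SE 0.23, adjusted p = 0.295, edgeR). Nor was it called for the libraries labelled knockdown (log2 fold change 0.23, SE 0.18, adjusted p = 0.387). Of all PHLDB1 counts, 74.4% fell on a retained-intron transcript (ENST00000620788.1) whose end lies 174 bases from that of TREH. TREH exons cover 175 of its last 500 bases, so PHLDB1 counts may not be separate from TREH counts, which was not tested. With both genes summed, a setting added after seeing the data, the g2 log2 fold change was -0.39 (SE 0.17, adjusted p = 0.0903) and the call was lost.

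**Figure D2:**
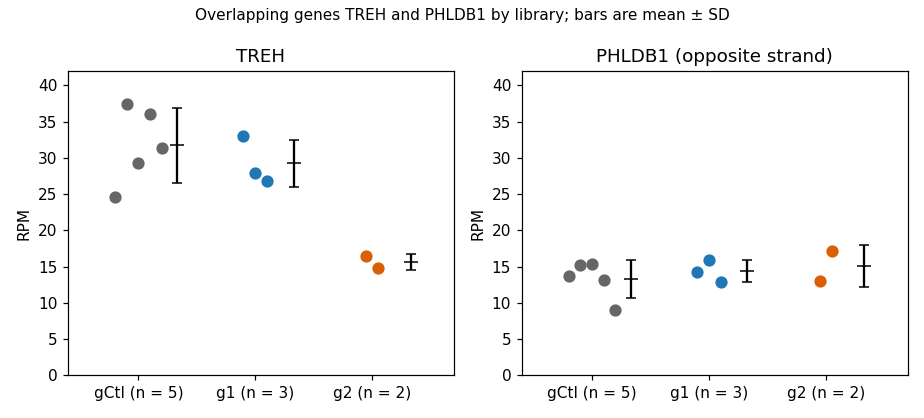
TREH and the gene on the opposite strand of its end, PHLDB1, in RPM by library. Points are libraries and bars are mean ± SD. TREH is lower in both g2 libraries (16.4 and 14.8 RPM) than in any other library, and PHLDB1 overlaps between all groups.

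DPP4 (ENSG00000197635.9, chromosome 2, 161992241 to 162074542, minus strand), the dipeptidyl peptidase that trims incretins and proline-containing peptides, held most of the members' counts. Its level was 67.7, 78.4, 77.4, 68.5 and 78.6 RPM in gCtl, 131, 99.6 and 111 RPM in g1, and 89.9 and 38.1 RPM in g2. All 3 g1 libraries and g2 replicate 1 were above every gCtl library, and g2 replicate 2 was below every other library. The means were 74.1 ± 5.50 RPM (SD, n = 5) in gCtl, 114 ± 16.0 RPM (SD, n = 3) in g1 and 64.0 ± 36.6 RPM (SD, n = 2) in g2.

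DPP4 rose in g1 with a log2 fold change of 0.66 (SE 0.21, adjusted p = 0.0330, edgeR), the 1 of 2 members called where 16.7% of genes were called in either direction, 6.81% higher and 9.91% lower. For g2 it was -0.05 (SE 0.24, adjusted p = 0.895). With the guides together no member was called, against 19.2% of the 11640 genes, 8.14% higher and 11% lower. Neither member had an unadjusted p below 0.05, where 4363 of the 11640 genes did. DPP4 then had a log2 fold change of 0.42 (SE 0.22, adjusted p = 0.184) and TREH one of -0.34 (SE 0.20, adjusted p = 0.227), and DESeq2 and limma called 0 members too. The guides' difference in DPP4, g2 against g1, was -0.71 (SE 0.27, adjusted p = 0.136).

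The g2 values rest on which library is used. Without g2 replicate 2, DPP4 was called higher for the guides together (log2 fold change 0.60, adjusted p = 0.00402), and its g2 value was 0.46 (adjusted p = 0.109). Without g2 replicate 1, its g2 value was -0.83 (adjusted p = 0.00815). The difference of g2 against g1 was -1.48 and called lower without g2 replicate 1 (adjusted p = 0.00201), and -0.18 without g2 replicate 2 (adjusted p = 0.659). It was called lower under limma on log2(RPM + 1) too (-0.94, adjusted p = 0.0368). The g1 call was lost without any of gCtl replicate 1 (adjusted p = 0.0708), 2 (adjusted p = 0.0574), 3 (adjusted p = 0.0572) or 4 (adjusted p = 0.0750), g1 replicate 1 (adjusted p = 0.118) or g1 replicate 3 (adjusted p = 0.107), and in the fit over all biotypes (adjusted p = 0.0587).

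DPP4 counts were divided among 6 of its 11 annotated transcripts. Its full-length coding transcript (ENST00000360534.7) took 66.6% of the counts over all libraries and a retained-intron transcript (ENST00000490286.5), whose end lies 2937 bases before that of the coding transcript, took 26.4%. The retained-intron transcript held 7.98%, 22.6%, 10.7%, 18.7% and 17.4% of DPP4 counts in gCtl, 39.4%, 21.4% and 31.2% in g1, and 29.6% and 44.8% in g2. Its share was higher in the libraries labelled knockdown, 33.3% ± 9.04 (SD, n = 5) against 15.5% ± 6.0 (SD, n = 5), although g1 replicate 2 lay inside the gCtl range (exact two-sided permutation test, p = 0.0159). This comparison was chosen after the shares had been seen.

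The coding transcript alone was 51.4 to 65.4 RPM in gCtl, 69.4 to 72.1 RPM in g1, and 56.4 and 18.6 RPM in g2. Its mean was 57.1 RPM in gCtl and 57.5 RPM in the libraries labelled knockdown, a difference of -0.13 in mean log2(RPM + 1) (exact two-sided permutation test, p = 0.976). With the retained-intron transcript left out, DPP4 in g1 had a log2 fold change of 0.36 (SE 0.24, adjusted p = 0.299) and was not called. How Kallisto divides reads between overlapping transcripts sets these shares, and its part in them was not tested. Neither transcript's last 500 bases hold a 31-base word of another gene.

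**Figure D3:**
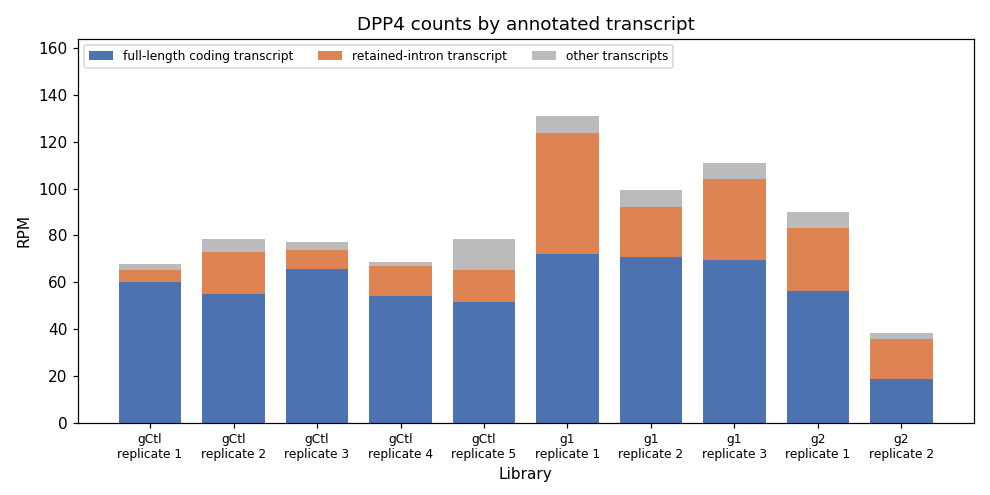
DPP4 in each library, in RPM, stacked by annotated transcript. The full-length coding part is 69.4 to 72.1 RPM in the 3 g1 libraries and 18.6 RPM in g2 replicate 2, and the retained-intron share of the gene is above the highest gCtl share, 22.6%, in 4 of the 5 g1 and g2 libraries.

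ANPEP, ENPEP and MME, the other membrane peptidases of the set, were near zero or low. ANPEP (ENSG00000166825.13, chromosome 15, 89784889 to 89815401, minus strand), aminopeptidase N, had 3, 4, 1, 1 and 1 counts in gCtl, 1, 3 and 7 in g1, and 7 and 3 in g2. Its groups overlapped at 0.176 to 0.781 RPM in gCtl and 0.174 to 1.14 RPM in g1 and g2 (p = 0.349 by the two-sided exact permutation test). ENPEP (ENSG00000138792.9, chromosome 4, 110365733 to 110565285, plus strand), aminopeptidase A, which removes acidic residues from peptides such as angiotensin, had 3, 7, 6, 4 and 12 counts in gCtl, 4, 7 and 5 in g1, and 10 and 10 in g2. Its levels overlapped as well, with means of 1.26 ± 0.516 RPM for gCtl (SD, n = 5) and 1.15 ± 0.486 RPM for g1 and g2 (SD, n = 5), and p = 0.730 by the two-sided exact permutation test.

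MME (ENSG00000196549.10, chromosome 3, 155024124 to 155183729, plus strand), neprilysin, had estimated counts of 3.14, 5.11, 8.64, 6.50 and 3.33 in gCtl, 6.78, 8.62 and 16.2 in g1, and 9.75 and 21.6 in g2. Of the 5 libraries labelled knockdown, 3 lay above every gCtl library, and the means were 1.11 ± 0.459 RPM (SD, n = 5) and 1.89 ± 0.658 RPM (SD, n = 5). The difference of 0.45 in mean log2(RPM + 1) missed the threshold (exact two-sided permutation test, p = 0.0556), and the edgeR adjusted p over all biotypes was 0.270. The ratio of MME per total count was 1.74 (95% exact interval 1.09 to 2.84) for both guides, 1.5 (0.873 to 2.61) for g1 and 2.07 (1.20 to 3.61) for g2, intervals that cover counting error only and not the spread between libraries. Of all MME counts, 74.4% fell on a retained-intron transcript (ENST00000491597.5) whose end lies 98000 bases before that of the full-length transcript, and 23.5% on coding transcripts. That transcript's end shares 9.36% of its 31-base words with other genes on the same strand, so the MME count says little about the coding RNA.

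**Figure D4:**
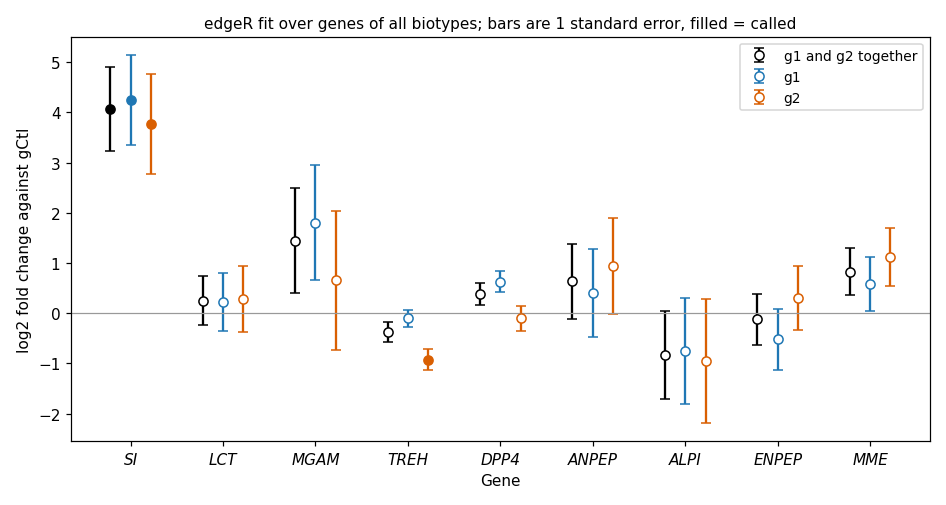
Log2 fold change of each of the 9 genes against gCtl for g1 and g2 together, g1 and g2, in the edgeR fit over genes of all biotypes. Bars are 1 standard error and filled points are called. SI is called in each comparison and TREH in g2, and the bars of SI, MGAM, ANPEP and ALPI are wider than those of the other 5 genes.

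Of 10 further brush border peptidases, 5 passed the filter, and for the guides together 1 was called higher and 1 lower, where 19.2% of all tested genes were called. Their median change was 0.51 on the log2 scale, against 0.02 over all 11640 genes. MEP1A, a subunit of the metalloprotease meprin, was 1.0 to 2.68 RPM in gCtl and 2.43 to 9.30 RPM in the libraries labelled knockdown, which overlapped. MEP1A rose, with a log2 fold change of 1.89 (SE 0.45, adjusted p = 0.00745). DPEP1, a dipeptidase that also hydrolyses leukotriene D4, had 8, 9, 30, 13 and 8 counts in gCtl, 8, 6 and 3 in g1, and 0 and 1 in g2. DPEP1 fell, with a log2 fold change of -2.15 (SE 0.65, adjusted p = 0.0259), a call that was lost without g1 replicate 3 (adjusted p = 0.0596) or g2 replicate 2 (adjusted p = 0.0509). MEP1A passed the filter only through the libraries labelled knockdown and DPEP1 only through gCtl. The filter thus favoured both calls and bears on the median. GGT1, the gamma-glutamyl transferase that breaks down glutathione, was called lower in g2, at 1.5 to 4.98 RPM in gCtl, 1.6 to 3.01 RPM in g1, and 0.489 and 0.273 RPM in g2 (log2 fold change -2.66, SE 0.72, adjusted p = 0.0134). That call was lost without g2 replicate 2 (adjusted p = 0.122). Of 5 brush border hydrolases of lipids and nucleotides, 3 passed the filter and 0 were called for the guides together with edgeR, with a median of 1.02. At an unadjusted p below 0.05 there were 2 of them, NT5E and PLB1, as were 4363 of the 11640 genes. NT5E and PLB1 are named for this reason after their values were seen. PLB1, a phospholipase, was called higher in g1, and NT5E, which releases adenosine from AMP, in g2, a call that was lost without g2 replicate 1 (adjusted p = 0.340). PLB1 was called lower in g2 than in g1 (log2 fold change -1.59, SE 0.38, adjusted p = 0.0257), which was lost without g1 replicate 2 or 3 or either g2 replicate (adjusted p between 0.0643 and 0.0754).

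Of 9 apical carriers that take up the products of these enzymes, 8 passed the filter, 1 was called higher and 1 lower. Their median was 0.76 on the log2 scale, against 0.02 over all 11640 genes. SLC5A1 was at most 1.92 RPM in gCtl, 3.21 RPM in g1 and 3.59 RPM in g2. It passed the filter only through libraries labelled knockdown and is named for this reason. The filter thus bears on this median too. Over all 11640 genes 19.2% were called for the guides together, 8.14% higher and 11% lower. SLC6A20, an imino acid carrier, was 8.54 to 10.9 RPM in gCtl, 21.6, 18.4 and 52.5 RPM in g1, and 42.5 and 51.6 RPM in g2. SLC6A20 was above gCtl in 5 of 5 libraries, where 4.67% of tested genes did not overlap and were higher. It rose with a log2 fold change of 2.06 (SE 0.30, adjusted p = 0.000358). SLC2A5, the fructose carrier that takes up a product of SI, was 5.38 to 13.8 RPM in gCtl and 0.844 to 5.49 RPM in the libraries labelled knockdown, and it fell by 1.18 on the log2 scale (SE 0.40, adjusted p = 0.0419). That call was lost without gCtl replicate 3 (adjusted p = 0.139), the library at 13.8 RPM, or any of 5 other libraries.

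Of 8 transcription factors known to act on hydrolase promoters, 4 passed the filter, and HNF4G alone was called for the guides together. In that comparison 19.2% of the 11640 genes were called, 8.14% higher and 11% lower. HNF4G, a nuclear receptor of the gut epithelium, was 1.5 to 5.47 RPM in gCtl, 3.48 to 5.59 RPM in g1, and 10.8 and 8.19 RPM in g2. HNF4G rose, with a log2 fold change of 1.28 (SE 0.38, adjusted p = 0.0243), and its call was lost without any of 5 libraries, gCtl replicates 2, 3 and 4 and both g2 replicates. CDX2, HNF4A and GATA6, the others that passed, had log2 fold changes of 0.36, -0.30 and 0.23 with no call for the guides together.

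GATA6 was 56.0 to 73.7 RPM in gCtl, 45.9 to 71.6 RPM in g1, and 93.5 and 103 RPM in g2, so both g2 libraries lay above all others. GATA6 rose in g2 (log2 fold change 0.69, SE 0.16, adjusted p = 0.00604, edgeR) and differed between the guides (g2 against g1 0.88, SE 0.18, adjusted p = 0.00992). The first call was lost under glmTreat, library totals and limma, and the second under glmTreat, limma on log2(TPM + 1) and a fit of only the compared groups. In the fit over all biotypes, where 6.49% of genes were called lower for the guides together, 7 of the 8 factors were tested. GATA5 was called lower for the guides together (adjusted p = 0.0235), with 2, 3, 3, 0 and 9 counts in gCtl and 0 in all 5 libraries labelled knockdown. GATA5 reached the 10 counts needed for this fit only through gCtl, so the cut favoured a lower value in the libraries labelled knockdown. Its groups overlapped at 0 in gCtl replicate 4, and DESeq2 gave it no adjusted p. Of the 8 genes listed as enterocyte markers, 7 passed the filter and 0 were called for the guides together with edgeR. Of these 7, 1 (KRT20) had an unadjusted p below 0.05, as did 4363 of the 11640 genes. In g2, 2 of the 7 were called higher, where 10.7% of the 11640 genes were. KRT20, a keratin of differentiated enterocytes, was 1.08 to 4.22 RPM in gCtl, 1.94 to 4.01 RPM in g1, and 8.97 and 9.97 RPM in g2 (log2 fold change in g2 1.91, SE 0.40, adjusted p = 0.00307). Between the guides KRT20 was called higher in g2 (adjusted p = 0.0408) but not over all biotypes (adjusted p = 0.0557), nor without gCtl replicate 1 or 4, g1 replicate 1 or 2, or either g2 replicate (adjusted p between 0.0512 and 0.125). CDH17, an intestinal cadherin, was 76.9 to 114 RPM in gCtl, 87.8 to 120 RPM in g1, and 174 and 123 RPM in g2 (log2 fold change in g2 0.72, SE 0.19, adjusted p = 0.0130), a call that was lost without g2 replicate 1 (adjusted p = 0.172). The genes called for 1 guide alone, CDX2 and HNF4A are named outside the rule for called genes, after their values were seen.

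**Figure D5:**
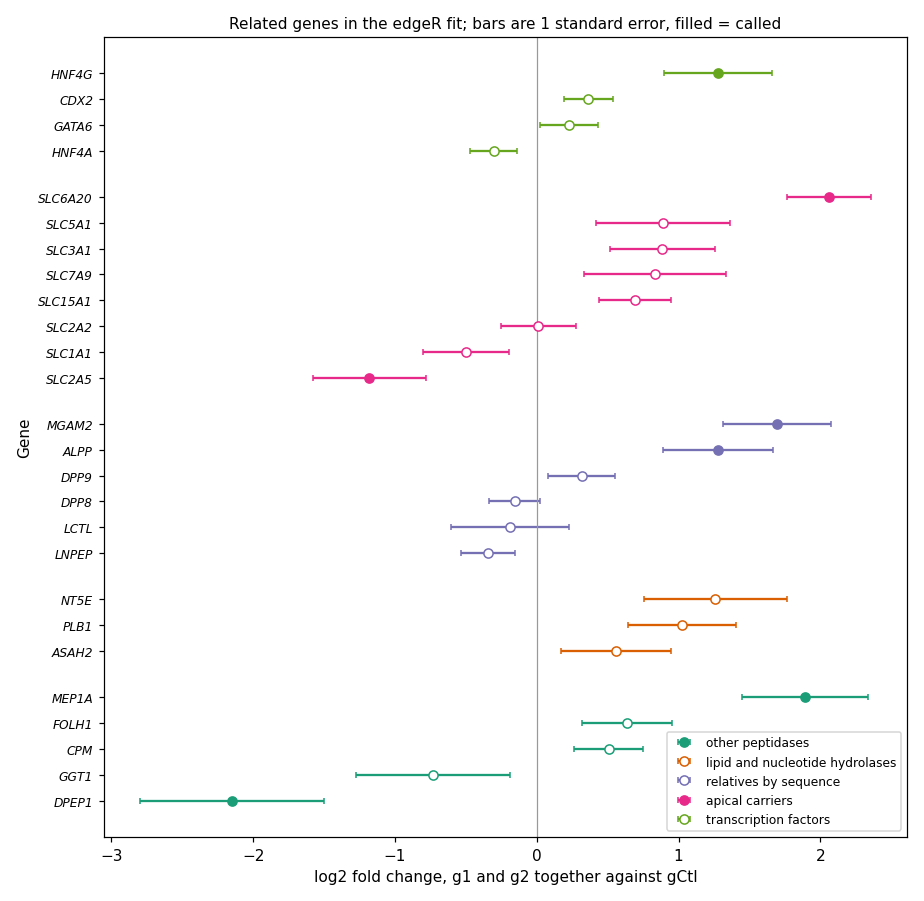
Log2 fold change of related genes in the libraries labelled knockdown against gCtl, by list, in the edgeR fit over 11640 genes. Bars are 1 standard error and filled points are called. MEP1A, SLC6A20, MGAM2, ALPP and HNF4G are called higher, and DPEP1 and SLC2A5 lower.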

How the data were processed

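RNA was sequenced by the authors as single-end Lexogen QuantSeq libraries, which count the 3' end of polyadenylated RNA, and quantified with Kallisto (version listed as 42.5 in the submitters' processing notes) against GENCODE 24 transcripts. The deposited values are estimated counts per transcript, not normalized and not pooled over replicates. They were summed per gene here and rounded for the tests. Use of strand in counting is not given in the sources used here.

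The tests across genes used edgeR's quasi-likelihood functions (glmQLFit and glmQLFTest, edgeR 4.0.16, R 4.3.3) on TMM factors and library sizes from all genes, with Benjamini-Hochberg adjustment over all genes tested. The g1 and g2 libraries were compared with gCtl as 1 group, and in a fit with 3 groups each guide with gCtl and g2 with g1. Comparisons with gCtl share its libraries. Single levels were compared by exact permutation tests (scipy 1.17.1), 1 per member and not adjusted over the list. Alternatives used DESeq2 1.42.0, limma 3.58.1 (pseudocount 1), other scalings and filters, and each library left out. The edgeR steps were tested on simulated data. A first fit took library sizes from the tested genes alone; all-gene totals were adopted after its results had been seen.

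The members, lists and motifs were chosen with earlier results of these data known. Some genes and a motif of the lists are not reported here and stay out of the lists' counts and medians. Named genes were all members and, of the other lists, every gene called for the guides together and every near copy of a member. A gene can pass a filter through 1 group alone, which favours a call in that direction. Coordinates are from GENCODE 29 on GRCh38. RPM totals set the precision of low genes: 1 count is at most 0.260 RPM. No 2 libraries of the same group looked like 1 library deposited again: the 14 within-group pairs gave chi-square values of 4.28 or more per degree of freedom. Pairs of libraries from different groups were not compared in this way.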

Additional observations from a re-analysis of the deposited data

Results flagged for a closer look

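SI in gCtl was 0.361 RPM (2 counts) in replicate 3 and 0 in the other 4 gCtl libraries. The gap between replicate 3 and the nearest gCtl library was compared with the range of the group. With 0 in all the others, gap and range are equal for any count above 0, so this cannot show that replicate 3 differs. Without that library the SI log2 fold change over all biotypes was 6.27 in place of 4.07.

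TREH differed between the guides, with a log2 fold change of g2 against g1 of -0.78 (adjusted p = 0.0477, edgeR) and both g2 libraries below all 3 g1 libraries. The adjusted p was 0.0618 with library sizes summed over the tested genes, the definition of a first fit that was replaced after its result had been seen, and the call was lost in 9 of 10 fits with 1 library left out.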

How the results depend on the processing

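Between settings, 373 of 456 recomputed values kept their direction and their side of the threshold, or stayed within 1.5 times of a count. On log2(TPM + 1), the level difference of SI was 0.43 (exact two-sided permutation test, p = 0.143) and that of ANPEP turned to -0.078, and under limma on log2(TPM + 1) DPP4 in g2 turned from -0.05 to 0.00097. With single libraries left out, the level difference ranged from 0.085 to 0.52 for DPP4, from -0.16 to 0.046 for ENPEP, which turned without gCtl replicate 5 (0.046), g1 replicate 1 (0.0025) or g1 replicate 3 (0.03), and from 0.33 to 0.54 for MME, whose exact permutation p then fell to 0.0317 at the lowest. DPP4 in g2 ranged from -0.83 without g2 replicate 1 to 0.46 without g2 replicate 2. For the guides together, members called went from 0 to 1 over all biotypes (SI) and with near copies summed (MGAM with MGAM2), and were 0 to 1 with libraries left out. For g1 they went from 1 to 0 under glmTreat, on protein-coding transcripts and for DPP4 without its retained-intron transcript, and to 2 with near copies summed, and were 0 to 1 with libraries left out. For g2 they went from 1 to 2 over all biotypes and with near copies summed, to 0 under glmTreat and for TREH with PHLDB1, and were 0 to 2 with libraries left out. Between the guides they went from 1 to 0 over all biotypes, with DESeq2 size factors, upper quartile scaling, glmTreat, protein-coding transcripts, TREH with PHLDB1, TMM on totals of the tested genes and only the compared groups, to 2 under limma on log2(RPM + 1), and were 0 to 1 with libraries left out. The causes were not tested. TREH with PHLDB1, DPP4 without its retained-intron transcript, TMM on tested-gene totals and the further fits of SI were chosen after seeing the data. No paired analysis was possible because the labels give no replicate numbers, and those used here are in accession order. With no factor beyond library totals, the median over all genes was -0.16 in g2 on the log2 scale. Depth limits the 7 low genes, of which 1 count is 0.115 to 0.260 RPM.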
